A study of Mus musculus with 2 samples.

Results

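The core and naive pluripotency factors described here are 10 genes, Pou5f1, Nanog, Utf1, Sall4, Dppa2, Dppa3, Dppa4, Zfp42, Esrrb and Tfcp2l1, taken by symbol from the 30744 symbols of the deposited exon count table, in which each of the 10 has a single gene model. They were followed in 2 total RNA-seq libraries. The normal kidney carries the genotype WT on a C57BL/6 x DBA/2 F1 background and had no doxycycline. The kidney tumour comes from an animal of genotype Tet-OSKM/mPer2-luc, on the same background, that was given doxycycline. In Tet-OSKM cells a doxycycline-dependent promoter drives Oct4 (the protein of Pou5f1), Sox2, Klf4 and c-Myc, the transactivator that answers to doxycycline is made from the Rosa26 locus, and mPer2-luc reports the clock gene Per2 through luciferase. The protocol that stands with both libraries is one for chimeric embryos, made from embryonic stem cells with these transgenes, so a chimeric tissue can hold cells with and without them, and the sources used here do not state the share of each, nor the age and sex of the animals. With 1 library per group no difference has a replicate check, and every value below compares these libraries, not the conditions.

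Pluripotent cells of the early mouse embryo, and embryonic stem cells grown from them, are held in their state by a small network of transcription factors. OCT4, the POU-domain protein of Pou5f1, binds DNA together with SOX2 at a composite site and keeps many genes of the network active, its own gene and Nanog among them. NANOG, ESRRB, TFCP2L1 and ZFP42 (REX1) mark the naive state of the preimplantation epiblast and are lost, with the exception of NANOG in part, when the epiblast passes to the primed state, whereas OCT4, SALL4 and UTF1 persist in primed cells. Most of these genes are silent in adult organs. TFCP2L1 is an exception in the kidney, where it is a regulator of collecting duct cells.

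The upstream sequences of the factors were set beside their values. RefSeq's promoter table (build GRCm38.p6, the assembly of mm10) holds 6 of the 10 factors, Pou5f1, Nanog, Utf1, Zfp42, Esrrb and Tfcp2l1, and does not list Sall4, Dppa2, Dppa3 and Dppa4. In the 250 bases before the start site, both strands were searched for the octamer ATGCAAAT bound by OCT4, exactly and with up to 1 mismatch, and for the SOX-type letters ACAAAG and ACAATG. The 4 windows shown are those of the factors with an octamer match, Nanog and Zfp42, of Pou5f1, the factor with the most RNA in the tumour, and of Tfcp2l1, the one factor that was lower there. They are written 5′ to 3′ on the strand of the gene and end before the most upstream annotated start, with matches in capitals.
Nanog, chr6:122707239-122707488, plus strand: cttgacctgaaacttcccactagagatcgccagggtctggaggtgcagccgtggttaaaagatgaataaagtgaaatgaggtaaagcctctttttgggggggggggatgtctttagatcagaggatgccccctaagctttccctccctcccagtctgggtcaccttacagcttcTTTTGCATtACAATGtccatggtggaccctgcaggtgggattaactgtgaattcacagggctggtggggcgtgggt
Zfp42, chr8:43307010-43307259, minus strand: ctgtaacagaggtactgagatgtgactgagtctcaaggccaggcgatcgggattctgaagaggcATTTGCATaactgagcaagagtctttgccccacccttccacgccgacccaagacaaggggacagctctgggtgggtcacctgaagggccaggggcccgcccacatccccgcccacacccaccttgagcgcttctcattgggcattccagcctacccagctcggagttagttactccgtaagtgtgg
Pou5f1, chr17:35505782-35506017, plus strand: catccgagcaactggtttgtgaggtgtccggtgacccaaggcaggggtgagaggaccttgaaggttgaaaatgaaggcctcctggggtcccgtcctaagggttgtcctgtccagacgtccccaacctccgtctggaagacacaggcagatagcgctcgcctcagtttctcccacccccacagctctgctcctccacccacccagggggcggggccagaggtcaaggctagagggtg
Tfcp2l1, chr1:118627695-118627944, plus strand: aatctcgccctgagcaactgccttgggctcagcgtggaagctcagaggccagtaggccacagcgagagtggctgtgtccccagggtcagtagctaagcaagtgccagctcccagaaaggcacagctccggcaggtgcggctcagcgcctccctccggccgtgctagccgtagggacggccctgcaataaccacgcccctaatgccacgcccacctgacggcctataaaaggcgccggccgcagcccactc

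Of the 6 factors, Zfp42 held the exact octamer, read on the opposite strand, at 186 to 179 bases before its start. Nanog held the octamer with 1 mismatch at 76 to 69 bases before its upstream start, followed after 1 base by ACAATG at 67 to 62 bases. The exact octamer was found in 1.60% of all 32851 promoters of the table, the octamer with up to 1 mismatch in 16.6%, ACAAAG in 16.5%, ACAATG in 10.7%, and the mismatched octamer together with ACAATG in 2.30%. The windows before the first exons of Pou5f1, Utf1, Esrrb and Tfcp2l1 held no octamer, and ACAAAG was in none of the 6. A further RefSeq start of Pou5f1, 2775 bases inside its model, has ACAATG at 158 to 153 bases before it, and the upstream start of Esrrb has none of these letters. The windows also differed in CG dinucleotides, the sites of DNA methylation: 16 in Tfcp2l1, 14 in Utf1, 9 in Zfp42, 8 in Pou5f1 and 3 each in the upstream window of Nanog and in that of the Esrrb model counted here, against a median of 6 over all promoters. A match in these letters is a description of the sequence and not a bound site.

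Reads over exons numbered 29258428 (normal) and 20836819 (tumour). All 10 factors, and 16326 symbols in total, had the 20 or more reads, summed over normal and tumour, asked of a measured gene. Levels are given as RPKM, reads divided by mRNA length and by the library's total, which allows genes of different length to be compared. Of the 12 genes listed as defining markers of the kidney, 11 were lower in the tumour library by the call defined below. Over all measured genes the share called lower was 28.0%. The 1 other marker, Nphs1 of podocytes, was neither (857 and 883 reads). The largest differences were those of Kap, a protein of proximal tubules, 3288-fold lower (2867 to 3791), the phosphate transporter Slc34a1, 1560.5-fold lower (1271 to 1938), and the glucose transporter Slc5a2, 657-fold lower (460.2 to 974). The marker list summed to 29687 RPKM in normal kidney and to 70.6 RPKM in the tumour, and none of its genes was at 0 in either. In bulk tissue, fewer cells of a type and less RNA per cell cannot be told apart, which holds for every difference below.

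The factors fell into 3 kinds. For 8 of them RNA was at or near 0 in the normal kidney and clearly present in the tumour, Esrrb was present in both and higher in the tumour, and Tfcp2l1 was present in both and lower in the tumour. In all, 9 of 10 were called higher and 1 lower, where a call asks for at least 2-fold between counts scaled by TMM, which sets aside the most extreme genes when it matches library sizes, and for a 95% counting interval that excludes 1. Over all measured genes 31.2% were called higher and 28.0% lower by the same rule, so that 52.8% of calls were higher, a share that was 67.6% with plain CPM (counts scaled by the library sum alone). The median log2 ratio of the 10 factors was 8.73, beside 0.08 over all measured genes. That median rests on a floor of 3 reads that stands in for a count of 0, and a floor of 1 read gives 10.32.

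**Figure D1:**
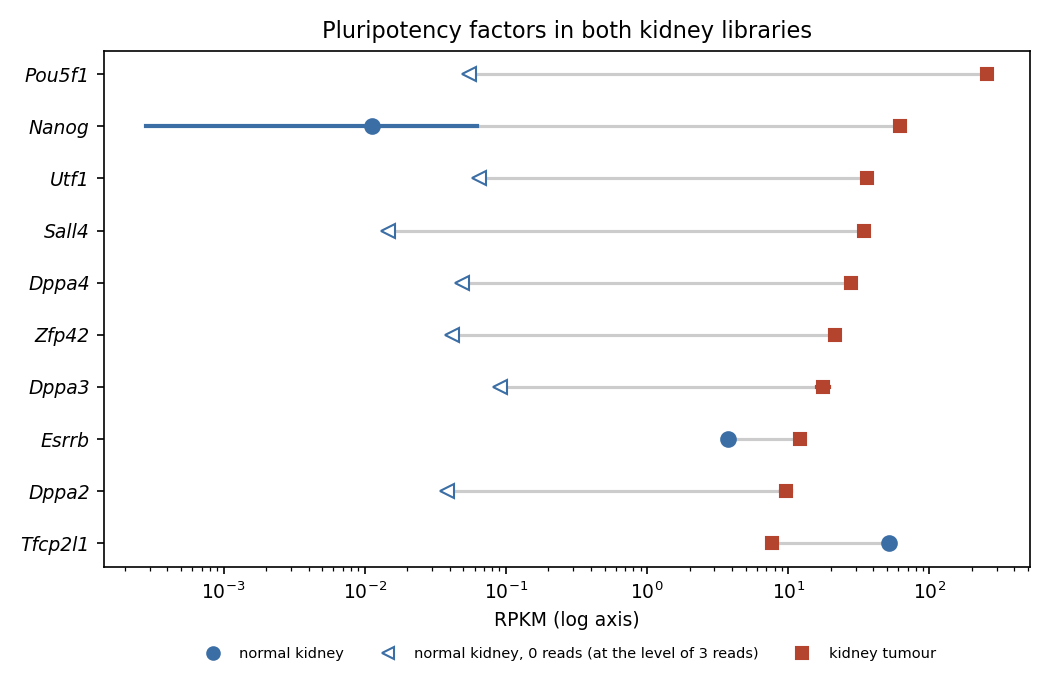
RPKM of the 10 factors on a log axis in the normal kidney (blue circles, or open triangles at the level of 3 reads where the count was 0) and the kidney tumour (red squares), with bars for the 95% Poisson counting interval. The tumour values run from 7.66 RPKM for Tfcp2l1 to 254 RPKM for Pou5f1, and only for Tfcp2l1 does the normal value lie to the right of the tumour value.

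Pou5f1 encodes OCT4, the factor of the network that is also part of the transgene. Its model (chromosome 17, positions 35506032 to 35510777, plus strand, mm10) counted 0 reads in the normal kidney, where 3 reads would be 0.0551 RPKM, and 11358 reads or 254 RPKM in the tumour. It was thus at least 3612-fold higher, with a lower limit of the counting interval of 2937-fold. Pou5f1 stood at rank 136 of the measured genes by tumour RPKM, with 99.2% of them below it. It made up 36.8% of the reads and 52.6% of the summed RPKM of the 10 factors in the tumour library. Counts over exons do not separate RNA of the transgene from RNA of the gene's own locus, so how much of this level came from either was not tested. The other 9 factors are not in the cassette named by the genotype.

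Nanog, a homeobox factor of the inner cell mass (chromosome 6, 122707565 to 122714633, plus strand), counted 1 read in the normal and 4507 reads in the tumour library, or 0.0112 and 61.5 RPKM. Its ratio was 4299.6-fold, and since it rests on that 1 read the interval is wide, 771 to 169863-fold. Sall4, a zinc finger factor that recruits the NuRD deacetylase complex and keeps Pou5f1 expressed (chromosome 2, 168748332 to 168767201, minus strand), counted 0 and 5786 reads, with 34.4 RPKM in the tumour. Sall4 was at least 1839.9-fold higher (lower limit 1496-fold). An antisense model, AK052878, overlaps the 5′ end of Sall4 and counted 0 and 23 reads. The library kit keeps strand, but whether reads were counted by strand is not stated in the sources at hand, so reads of the pair cannot be told apart with certainty. Utf1, a chromatin-bound protein of pluripotent cells (chromosome 7, 139943856 to 139945112, plus strand), counted 0 and 1388 reads, with 36.1 RPKM in the tumour, at least 441-fold higher (lower limit 358-fold). The normal library was at 0 or 1 read for these 3 genes and for Pou5f1, although they range from short to long models.

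The Dppa genes were named for developmental association with pluripotency. Dppa3, also called Stella, protects the DNA methylation pattern of the early embryo and marks primordial germ cells. It (chromosome 6, 122626424 to 122630271, plus strand) counted 0 and 477 reads, the lowest tumour count of the 10, but with its short mRNA of 814 bases this was 17.7 RPKM. It was at least 152-fold higher (lower limit 123-fold). Dppa2 and Dppa4 encode SAP-domain proteins that work as a pair on CG-rich and bivalent promoters. The gene models counted for them lie 15982 bases apart on the plus strand of chromosome 16. Dppa4 (48283735 to 48294292) counted 0 and 1418 reads, or 28.0 RPKM in the tumour, at least 450.9-fold higher (lower limit 366-fold). Dppa2 (48310274 to 48319513) counted 0 and 620 reads, or 9.66 RPKM, at least 197-fold higher (lower limit 160-fold). In GENCODE M21 the gene Dppa2 starts further upstream, at 48303908, so any exons before the counted model are not in this count. The partners thus shared the pattern of 0 reads in the normal kidney, with more Dppa4 than Dppa2 RNA per length in the tumour.

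Zfp42 encodes REX1, a zinc finger protein derived from the YY1 family and a classical marker of the naive state (chromosome 8, 43295067 to 43307009, minus strand). It counted 0 and 1286 reads, with 21.6 RPKM in the tumour, and was at least 409-fold higher (lower limit 332-fold). This is the factor whose promoter, printed above, holds the exact octamer.

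Esrrb, an orphan nuclear receptor that stands in for several functions of NANOG in embryonic stem cells, was the one factor with RNA in both tissues that was higher in the tumour. Its model (chromosome 12, 86421644 to 86521628, plus strand) counted 637 reads in the normal and 1694 reads in the tumour library, or 3.76 and 12.2 RPKM. The scaled counts were 26.4 and 67.0 CPM, a ratio of 2.54-fold (2.31 to 2.78). Over the other scalings tried the ratio lay between 2.53-fold and 3.73-fold. Esrrb moved from the middle of the normal library, with 50.6% of measured genes below it by RPKM, to 74.6% in the tumour. The model begins at the downstream of the start sites that RefSeq lists, 60527 bases from the upstream one, so transcripts that use only upstream exons are not in this count.

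Tfcp2l1, a CP2-family factor that acts below LIF and STAT3 in naive cells, was the one factor that was lower in the tumour. Its model (chromosome 1, 118627945 to 118685168, plus strand, mRNA of 9255 bases) counted 19279 reads in the normal and 2350 reads in the tumour library, or 51.6 and 7.66 RPKM. The scaled counts were 799 and 93.0 CPM, 8.60-fold lower (8.24 to 8.98), and between 5.84-fold and 8.64-fold lower over the other scalings. In the normal kidney Tfcp2l1 alone held 96.8% of the reads of all 10 factors, and its RPKM was 13.7 times that of Esrrb. In the tumour the order of this pair was turned, with Esrrb 1.59 times as high per length. Genes of the distal tubule and collecting duct, listed because Tfcp2l1 is made there, were lower for 20 of 20 measured members. Over all measured genes 28.0% were lower. The median log2 ratio of the distal genes was -5.15, while Tfcp2l1 stood at -3.10. Their summed level was 1636 RPKM in the normal and 26.8 RPKM in the tumour library, and Pvalb, a calcium-binding protein of the distal convoluted tubule, was at 0 reads in the tumour. The smallest difference in that list was that of Hsd11b2, the enzyme that inactivates glucocorticoids in aldosterone target cells, 4.89-fold lower (3.98 to 6.06). The largest were those of the calcium-binding Calb1, the anion exchanger Slc26a4 and uromodulin (Umod), at 211-fold, 178-fold and 166-fold lower. The part that the lower level of these segments has in the Tfcp2l1 difference was not tested.

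**Figure D2:**
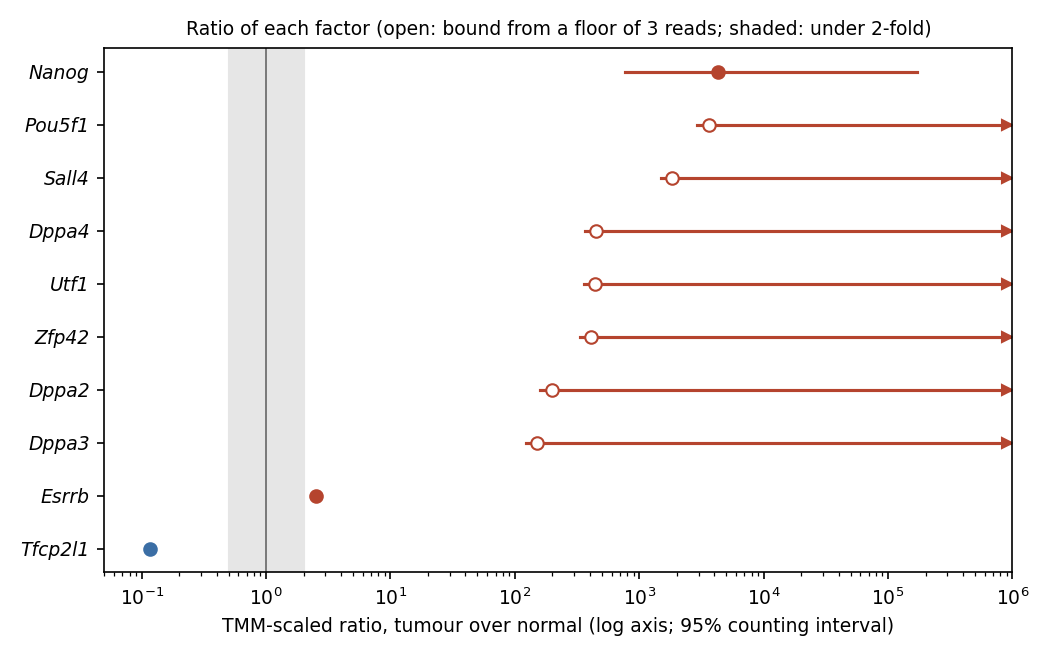
Tumour-to-normal ratio of scaled counts for each factor on a log axis, with the 95% counting interval; open circles are bounds set by the floor of 3 reads, arrows mark intervals without an upper limit and the shaded band marks ratios under 2-fold. From Dppa3 at 152 to Nanog at 4299.6, 8 factors lie far to the right, Esrrb lies just beyond the band at 2.54, and Tfcp2l1 lies to the left of it. The top place of Nanog depends on the floor, as its 1 normal read was not raised to 3. With a floor of 1 count, Pou5f1 (10835) and Sall4 (5520) lie above Nanog.

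Among themselves the factors spanned a 33.2-fold range of tumour RPKM. Pou5f1 was 4.13 times as high as Nanog (3.99 to 4.28), and Nanog 1.70 times as high as Utf1 (1.60 to 1.81). Utf1 and Sall4 were next, at 36.1 and 34.4 RPKM, and were not separated by counting error (ratio 1.05, interval 0.990 to 1.11). Below them Dppa4, Zfp42, Dppa3, Esrrb, Dppa2 and Tfcp2l1 followed in that order at 28.0, 21.6, 17.7, 12.2, 9.66 and 7.66 RPKM, and each of these steps, of 1.22 to 1.45 times, was larger than counting error. All 10 lay above the median tumour RPKM of measured genes, 4.35. Without a second tumour these intervals say nothing of the spread between animals. In the normal library the order was Tfcp2l1, Esrrb and Nanog, with the other 7 at 0.

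**Figure D3:**
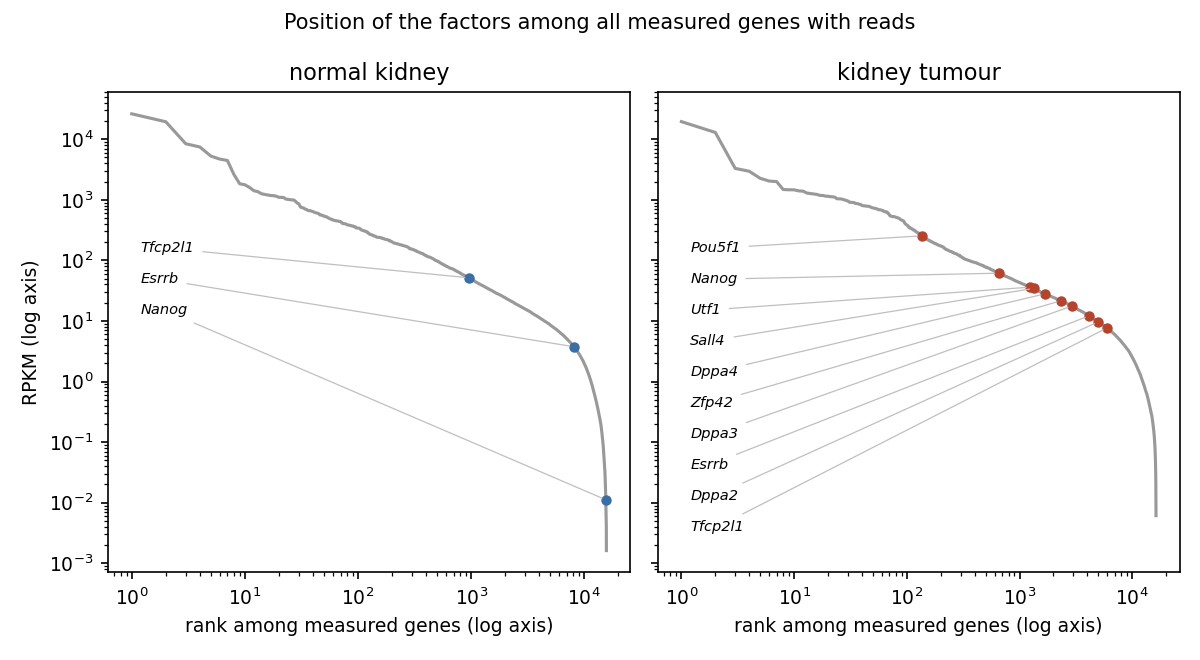
RPKM of every measured gene with reads against its rank, both on log axes, in the normal kidney (left) and the tumour (right), with the factors as points; factors at 0 reads are absent from the left panel. In the tumour they spread from rank 136 (Pou5f1) to rank 5963 (Tfcp2l1), while in the normal kidney only Tfcp2l1 (rank 956), Esrrb (rank 8063) and Nanog carry reads.

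A count of 0 or 1 in the normal kidney was not rare in itself, as 862 of the measured genes (5.28%) had it. With 477 or more tumour reads in addition, the level of Dppa3, 86 genes were left (0.527% of measured genes). That cut-off is the lowest tumour count among the 8 factors with 0 or 1 normal reads, so all 8 pass it by construction. By the distance between log2(RPKM + 0.1) values in the 2 libraries, the genes nearest to Pou5f1 were Trh, the precursor of thyrotropin-releasing hormone (0 and 283 RPKM, distance 0.156), Dppa5a, which binds RNA in pluripotent cells (0 and 309.6 RPKM, 0.286), and the imprinted noncoding RNA H19 (0 and 201 RPKM, 0.336). Nearest to Nanog were the histone gene Hist1h2ae (0 and 55.4 RPKM, 0.215), the imprinted gene Nnat (0.0399 and 54.0 RPKM, 0.381) and Sox2 (0 and 46.9 RPKM, 0.419). Nearest to Tfcp2l1 were Hebp1, Mpp1 and Fam107b, at 49.0, 53.8 and 47.6 RPKM in normal kidney and 7.59, 7.27 and 7.82 RPKM in the tumour. With 2 libraries this likeness is one of level only.

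The remaining genes of the pluripotency network were higher without exception, 22 of 22, beside the 31.2% of all measured genes, with a median log2 ratio of 8.33. For 9 of the 22, at 0 normal reads, the call was fixed by construction. The list was written with earlier results of these data known, so its direction is a description. Some genes stand in more than one of the lists that follow (Fgf4, Fbxo15, Prdm14, Pou3f1, Tfap2c and Gata3), and 5 kidney markers are also distal tubule genes. Lin28a, which blocks let-7 maturation, counted 1 and 12152 reads, the RNA-binding protein L1td1 counted 1 and 8294 reads, and the Nodal co-receptor Tdgf1 counted 0 and 7522 reads. The smallest difference was that of the Krüppel-like factor Klf2, with 160 and 551 reads, 3.29-fold higher (2.75 to 3.94). Sox2, which binds with OCT4 and is part of the transgene, counted 0 and 3820 reads, or 46.9 RPKM in the tumour. Its RPKM was thus below that of Pou5f1 and of Nanog. Klf4, with 132 and 553 reads, is part of the transgene as well. For Sox2 and Klf4, as for Pou5f1, counts over exons do not separate RNA of the transgene from RNA of the gene's own locus.

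Genes of the formative and primed epiblast, the state that follows the naive one, were higher for 14 of 14 measured members. This stood beside 31.2% of all measured genes, and the median of the list was 8.28. For 6 of the 14, at 0 normal reads, the call was fixed by construction. The de novo DNA methyltransferase Dnmt3b counted 36 and 29955 reads, or 0.213 and 216 RPKM. The zinc finger factor Zic2 (0 and 2125 reads) and the homeobox factor Otx2 (0 and 2039 reads) were at least 676-fold and 648-fold higher (lower limits 549-fold and 527-fold). The methyltransferase Dnmt3a showed the smallest difference, 4.41-fold (4.21 to 4.63). Naive and primed genes were thus present in the same library, and from bulk RNA it cannot be told apart whether they were in the same cells.

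Of 7 genes with enhancers bound by OCT4 and SOX2 in embryonic stem cells, 6 were higher and 1 was neither. For 4 of the 6, at 0 normal reads, the call was fixed by construction. Over all measured genes 31.2% were higher. Trh counted 0 and 12968 reads, the Nodal antagonists Lefty2 and Lefty1 0 and 3554 and 17 and 3901 reads, the growth factor Fgf4 0 and 1448 reads, the F-box gene Fbxo15 0 and 1335 reads and the uridine phosphorylase Upp1 214 and 3582 reads. Spp1 (osteopontin), which kidney tubules make as well, was abundant in both libraries, at 382 and 635 RPKM, with a log2 ratio of 0.38.

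The receptor pathway of LIF, the cytokine that holds mouse embryonic stem cells in the naive state and acts through STAT3 on Tfcp2l1, had 3 of 8 genes higher, 3 lower and 2 neither, for so few genes near the 31.2% higher and 28.0% lower of all measured genes. Higher were Lif itself (4 and 80 reads), the feedback inhibitor Socs3 (51 and 462 reads, 8.64-fold, 6.46 to 11.8) and, at the threshold, the adaptor Grb2 (2.01-fold, 1.79 to 2.25), which was short of 2-fold with DESeq2 size factors (log2 ratio 0.998). Lower were the receptor subunits Il6st and Lifr and the kinase Jak1, 2.67-fold (2.56 to 2.79), 2.42-fold (2.30 to 2.56) and 2.57-fold (2.44 to 2.71). With plain CPM all 3 were short of 2-fold, with log2 ratios of -0.86, -0.72 and -0.80. Stat3 had a log2 ratio of -0.80, and the phosphatase Ptpn11 had -0.24, which turned to 0.32 (plain CPM), 0.12 (header totals) and 0.11 (RPKM plus 0.1 or plus 1). Across scalings the median over the whole measured table itself moved up from 0.08 by 0.56 (plain CPM), 0.35 (header totals), 0.32 (RPKM plus 0.1) and 0.16 (RPKM plus 1).

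Subunits of NuRD, the deacetylase and remodelling complex that SALL4 binds, were higher for 8 of 13 genes, lower for 2 and neither for 3, beside 31.2% higher and 28.0% lower over all measured genes, with a median of 1.18. With plain CPM 11 of the 13 were higher, and 10 with header totals or RPKM plus 0.1 or plus 1. The subunit Mta1 was 4.97-fold (4.41 to 5.62), the deacetylase Hdac1 4.49-fold (4.11 to 4.90) and Mta3 3.51-fold (3.13 to 3.95) higher. The helicase Chd3 was 6.04-fold lower (5.80 to 6.29), and Mbd2, at a log2 ratio of -2.06, was lower as well.

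Paralogues showed how far the factors differ from their families. The receptors related to Esrrb went the other way: Esrra, a regulator of oxidative metabolism, was 7.50-fold lower (6.77 to 8.34), at 32.7 and 5.57 RPKM, and Esrrg 27.9-fold lower (22.1 to 35.7), at 9.09 and 0.416 RPKM. Esrrb was therefore the receptor of this family with the most RNA per length in the tumour library and the one with the least in the normal kidney. Around Tfcp2l1, its close paralogue Tfcp2 was 2.91-fold lower (2.57 to 3.30), with a log2 ratio of -0.98 and thus short of 2-fold under plain CPM and under RPKM plus 1. Ubp1 was neither (10.9 and 20.4 RPKM, log2 ratio 0.55), though at 1.11 with plain CPM. The grainyhead-like members Grhl1, Grhl2 and Grhl3, factors of epithelia, were higher, Grhl1 by 6.24-fold (3.29 to 13.1), Grhl2 by 5.48-fold (4.81 to 6.28) and Grhl3 by 36.3-fold (12.1 to 178). Under RPKM plus 1 Grhl1 was short of 2-fold, with a log2 ratio of 0.59.

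Sall1, Sall2 and Sall3 were expressed in the normal kidney, unlike Sall4, with 1155, 1127 and 121 reads. In the tumour Sall1 was 2.16-fold higher (2.01 to 2.31), Sall2 2.80-fold higher, with log2 ratio 1.49, and Sall3 2.46-fold higher (1.99 to 3.06), the last with a log2 ratio of 0.72 and short of 2-fold under RPKM plus 1. At 34.4 RPKM Sall4 exceeded its paralogues in the tumour, which stood at 15.0, 20.9 and 1.37 RPKM. Yy1, the ancestral relative of Zfp42, had 8.48 and 19.0 RPKM and a log2 ratio of 0.81. Among POU factors the primed-state gene Pou3f1 counted 0 and 1188 reads and Pou3f2 0 and 176 reads. Pou2f1, Pou2f2, Pou2f3 and Pou4f1 were called higher as well. Pou3f3 and Pou6f1 went the other way, 7.51-fold (6.40 to 8.85) and 3.80-fold (3.27 to 4.42) lower. Of all 19 measured paralogues 12 were higher, 5 lower and 2 neither, beside 31.2% higher and 28.0% lower over all measured genes. Under RPKM plus 1, 7 paralogues were higher.

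**Figure D4:**
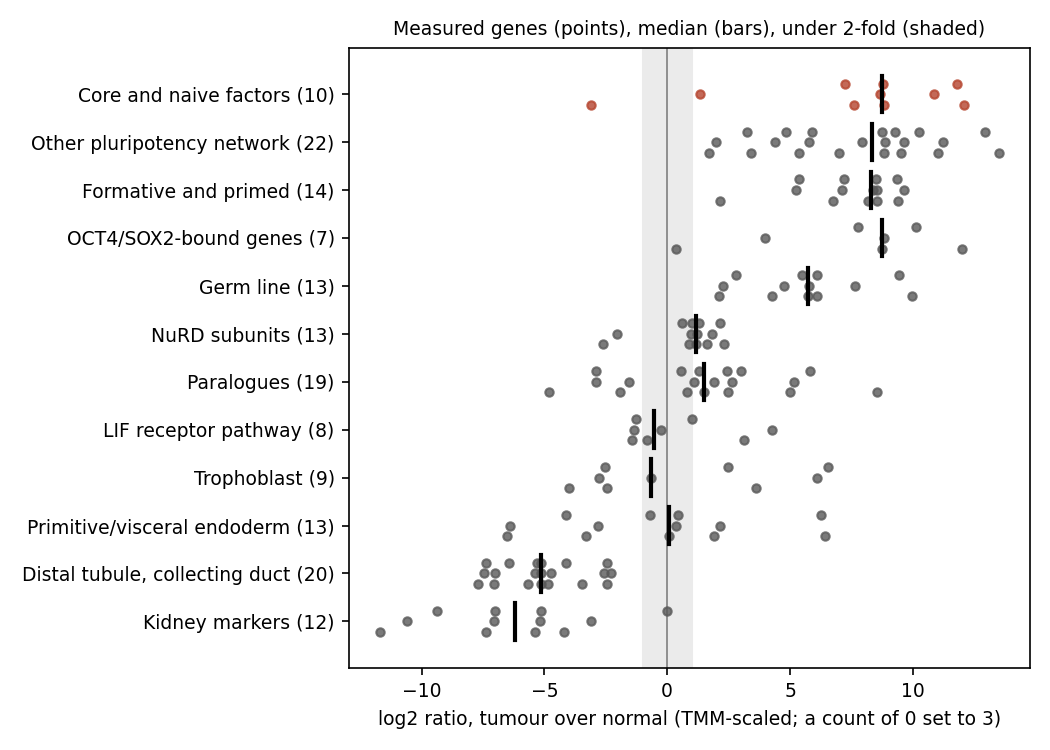
Log2 ratio, tumour over normal, of every measured gene in the lists (points, with the number of measured genes in brackets), the median of each list (black bar) and the range under 2-fold (shaded). The factors, in red, have 8 points above 7 and Esrrb and Tfcp2l1 apart from them at 1.34 and -3.10, while the network and primed lists lie wholly to the right and the distal tubule list wholly to the left.

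Several factors are also expressed outside the epiblast, and the markers of those cell types were read beside them. Germ line genes, shared in part with Dppa3, Nanog and Pou5f1, were higher for 13 of 13 measured members, beside 31.2% of all measured genes. For 4 of the 13, at 0 normal reads, the call was fixed by construction. The median of the germ line list was 5.71 and its summed levels were 2.65 and 67.7 RPKM. Dazl and Stra8, genes of germ cell development and meiotic entry, counted 1 and 1045 and 1 and 731 reads, and Tex19.1 counted 0 and 624 reads. Kit, with RNA in the normal kidney too, had the smallest difference, 4.26-fold (3.79 to 4.79). Nanos2, a factor of male germ cells, was at 0 and 1 reads and not measured.

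Among genes of the trophoblast, which also makes Esrrb, 4 of 9 measured members were higher and 4 lower, for so few genes close to the 31.2% and 28.0% of all measured genes, with summed levels of 72.1 and 83.3 RPKM. Gcm1 of placental labyrinth was 15.9-fold lower (6.54 to 50.5), Krt7, a keratin also made in collecting ducts, 6.85-fold lower (6.09 to 7.73) and Elf5 5.77-fold lower (1.96 to 23.0), while Eomes, which the primitive streak makes as well, was 94.4-fold higher (40.2 to 292). Also higher were Tfap2c (0 and 217 reads), Krt18 (355 and 2081 reads) and Ascl2 (2 and 26 reads), and Gata3 (103 and 20 reads) was lower. Cdx2 and Hand1 counted 4 and 2 reads in the tumour, Tpbpa and Prl3d1 were at 0 in both libraries, and so these were not measured. Under RPKM plus 1 only 1 trophoblast gene was lower and 3 were higher.

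Among genes of the primitive and visceral endoderm, which also make Sall4, 4 of 13 were higher, 5 lower and 4 neither, again near the 31.2% and 28.0% of all measured genes, with summed levels of 442 and 50.6 RPKM. Foxa2 and Gata4 were at 0 in the normal library and counted 273 and 244 reads in the tumour, and Gata6 was 4.45-fold higher (3.09 to 6.57). The nuclear receptor Hnf4a, which proximal tubules make, was 90.9-fold lower (80.9 to 102). The 5 lower genes, Hnf4a, Cubn, Ttr, Dab2 and Amn, had 143, 111, 85.2, 63.2 and 29.1 RPKM in the normal kidney. They held most of the summed normal level of the list, which in that library is RNA of kidney tissue. Afp, the main secreted protein of visceral endoderm, counted 48 and 65 reads. The part of germ line, trophoblast or endoderm cells in the values of the factors was not tested.

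The gene models next to the factors were also read, since several factors sit in clusters. Of 17 flanking models other than the factors themselves 11 were measured, of which 9 were higher, 1 lower and 1 neither, beside 31.2% higher and 28.0% lower over all measured genes. On chromosome 6, Gdf3, a TGF-beta family ligand that lies 16353 bases from Dppa3, counted 2 and 1533 reads (731-fold, 202 to 6043). Slc2a3, the glucose transporter GLUT3 at 13176 bases from Nanog, counted 36 and 43737 reads, or 0.226 and 334 RPKM (1159-fold, 837 to 1655), more than any of the 10 factors in the tumour. Gdf3, Dppa3, Nanog and Slc2a3 were thus all near 0 in the normal kidney and higher in the tumour. Beside Zfp42, the tripartite motif gene Triml2 counted 0 and 479 reads, and beside Utf1 Kndc1 counted 0 and 210 reads.

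At the other loci the neighbours differed from the factor in size or direction. Tcf19 and H2-Q10, on either side of Pou5f1, were 2.14-fold (1.64 to 2.80) and 3.20-fold (1.73 to 6.30) higher. Next to Sall4, Atp9a was 2.42-fold lower and Zfp64 2.65-fold higher (2.29 to 3.06). Next to Tfcp2l1, Gli2, a transcription factor of Hedgehog signalling, counted 7 and 852 reads (116-fold higher, 56.1 to 290) and Clasp1 was 2.24-fold higher (2.10 to 2.38), against the lower level of Tfcp2l1 itself. Gpatch2l beside Esrrb was neither, with a log2 ratio of -0.42.

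**Figure D5:**
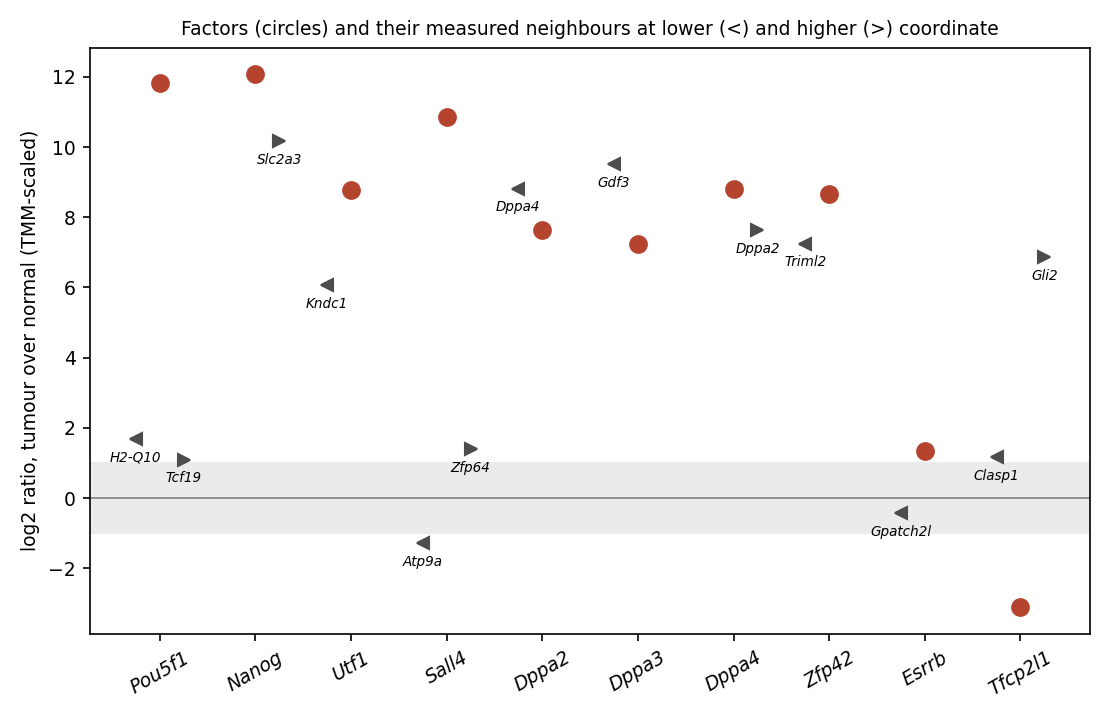
Log2 ratio, tumour over normal, of each factor (red circles) and of the measured gene model next to it at the lower (left-pointing) and higher (right-pointing) coordinate; the shaded band is under 2-fold. Gdf3 and Slc2a3 at the Dppa3 and Nanog locus lie near the factors at 9.51 and 10.18, while Atp9a beside Sall4 lies at -1.28 and Gli2 above Tfcp2l1 at 6.86.

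Reads of genes with near-identical copies are uncertain, because the sources at hand do not say what was done with reads of more than one mapping place. In the GENCODE M21 transcripts, pseudogenes that match a factor's mRNA at 90% identity or more over at least 200 bases numbered 6 for Dppa2 (up to 99.3% identity), 2 each for Dppa3 (98.2%) and Dppa4 (99.4%), and 1 each for Nanog (97.6%) and Zfp42 (98.1%). The search found none for Pou5f1, Utf1, Sall4, Esrrb and Tfcp2l1.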

How the data were processed

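Exon read counts of 2 libraries were used as the authors deposited them, for 32958 UCSC knownCanonical gene models. The authors also deposited RPKM values, which equal the count per mRNA length and per header total (40408775 and 33169818 reads, per the file headers) to within 1.80e-06. Named in the submitters' processing notes, without role, are build mm10, HOMER, STAR 2.5.0c and bcl2fastq. Per the labels' protocols, RNA was depleted of ribosomal RNA and the kit keeps strand. Where a symbol had several models, the one with the most reads stood for it. Library sizes were scaled with TMM over measured genes (edgeR 4.0.16, R 4.3.3; factors 0.824 and 1.21), and DESeq2 1.42.0 size factors were an alternative. Ratios carry exact conditional (Clopper-Pearson) 95% intervals, and RPKM Poisson ones. These intervals hold counting error alone, since each group has 1 library. Duplicate PCR reads were not marked here, and any among the counts would make the intervals too narrow. A count of 0 was set to 3, and "at least" marks a ratio with this floor, for which the counting interval has a smaller lower limit. With 1 library per group no p-value was computed. Calls were tested on simulated Poisson counts with known library sizes. That simulation holds no variation between animals or libraries and no estimate of scaling, so it says nothing of either. Python 3.11.15, numpy 2.4.6, pandas 2.3.3, scipy 1.17.1 and matplotlib 3.10.9 were used.

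The 10 factors and the 12 gene lists beside them were chosen with earlier results of these data known. Named genes are all factors, their flanking models, the 3 nearest in level to Pou5f1, Nanog and Tfcp2l1, the paralogues of Sall4, Esrrb and Tfcp2l1, and in each list the 3 largest ratios in the direction of the median and the largest, where called, in the other. Lists of up to 8 genes are named in full. Further genes named, such as the smallest difference of a list, markers at or near 0, the other called trophoblast genes, Sox2, Mbd2, Afp and Yy1, were chosen after their values were seen. RefSeq promoters matched by symbol and start site.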

Additional observations from a re-analysis of the deposited data

How the results depend on the processing

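The calls of the 10 factors, 9 higher and 1 lower, were the same with plain CPM, header totals, DESeq2 size factors, deposited RPKM plus 0.1 or plus 1, models of a symbol summed, a floor of 1 count, no filter on low counts and a filter of 100 reads. The RPKM settings carry no counting interval, so every call given under them rests on the 2-fold ratio alone. With a threshold of 4-fold, 8 were higher and 1 lower, as Esrrb fell short. The size of the ratio of the 8 factors at 0 or 1 normal reads depends on the floor and the pseudocount: for Pou5f1 the log2 ratio lay between 7.99 (RPKM plus 1) and 13.40 (floor of 1 count), and for Dppa3 between 4.22 and 8.83. Of 144 counts of higher or lower genes in the lists under an alternative, 140 stayed within 1.5 times of the reported count. The other 4 were the lower genes of the LIF receptor pathway (0 with plain CPM, 1 with RPKM plus 1), the lower trophoblast genes (1 with RPKM plus 1) and the higher paralogues (7 with RPKM plus 1). Over all measured genes, 52.8% of calls were higher, 67.6% with plain CPM, 62.5% with header totals, 62.6% with RPKM plus 0.1 and 59.2% with RPKM plus 1, and the lower calls numbered 4566, 3297 with plain CPM and 2758 with RPKM plus 1. No paired analysis was possible because each group has 1 library. For the 7 factors at 0 normal reads the 95% counting interval reaches 3.69 reads, so a lower normal level could not be told from 0 at this depth.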

Other observations

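Genes of the 2-cell embryo that DPPA2 and DPPA4 are known to switch on through Dux were near 0 in both libraries. Of 11 entries 10 were found in the table and none reached 20 reads. Zscan4c, Zscan4d and Zfp352 had the most tumour reads of the list, 19 each, and 0 in the normal library, Tcstv3 had the highest tumour RPKM, 0.310, Dux counted 0 in both, and the list summed to 1.68 RPKM in the tumour, beside 28.0 RPKM for Dppa4 and 9.66 RPKM for Dppa2. Zscan4 genes have near-identical copies, so reads that map to several of them may be missing from these counts.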
